A study of Mus musculus with 2 samples.

Results

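The vesicular glutamate transporters are described here across neurons sorted from the mouse spiral ganglion, whose cells link the cochlea with the brainstem. The members are 3 of the 14425 genes in the deposited expression table, taken by name: *Slc17a6*, *Slc17a7* and *Slc17a8*. Their level, the ratio of *Slc17a6* to *Slc17a7* and their detection in the same cell are given for each library, and then by the level of *Lypd1* and of *Calb2*, genes used as markers of classes of type I spiral ganglion neuron. RNA was measured in single cells with the 10x Genomics 3′ assay v3, which counts RNA molecules as unique molecular identifiers (UMIs). The library labelled iCON came from mice of the genotype Runx1-CreER/+; Ai14/+, and the library labelled iCKO from mice of the genotype Runx1-CreER/Runx1F; Ai14/+. Mice of both libraries received tamoxifen on postnatal day 1, and cochleae of both sexes were collected at postnatal days 27 to 29, digested with collagenase and papain, and sorted for tdTomato. All cells of both libraries thus come from animals that carry the CreER allele, the Ai14 tdTomato reporter and the tamoxifen treatment, and the sort is meant to keep cells in which Cre, driven from *Runx1*, had switched on the reporter. The number of animals behind each library is not given in the sources used here.

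Vesicular glutamate transporters load glutamate into synaptic vesicles, using the proton gradient set up by the vesicular proton pump. *Slc17a7* encodes the transporter VGLUT1, *Slc17a6* encodes VGLUT2 and *Slc17a8* encodes VGLUT3. In the cochlea, the inner hair cells fill their vesicles with VGLUT3, and the spiral ganglion neurons that they excite use VGLUT1 and VGLUT2 at their synapses in the cochlear nucleus. Type I neurons are the myelinated neurons that contact inner hair cells, and type II neurons are the sparse unmyelinated neurons that contact outer hair cells. *Runx1* encodes a transcription factor, *Calb2* the calcium-binding protein calretinin, and *Lypd1* a membrane-anchored protein of the Ly6 family.

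The libraries held 462 cells and 22011292 UMIs (iCON) and 407 cells and 13743824 UMIs (iCKO), with median depths of 49725.5 and 33602 UMIs per cell. No barcode was shared between them. With 1 library per group there is no replicate check and no test, so every difference is between 2 libraries; the intervals given (95%) cover counting error only, and cells are not replicates of a genotype. Mean *Runx1* RNA was 0.867 UMIs per 10000 UMIs of a cell in iCON and 1.12 in iCKO, and so was not lower under the deletion label. Reads from the 3′ end cannot show whether an internal exon is missing, and the libraries are named by their labels. The libraries also differed in the share of cells with *Xist* and no Y-linked RNA (54.5% and 78.4%) and of cells with little myelin-gene RNA (24.5% and 39.1%, below 10 UMIs per 10000 summed over a short list of myelin genes that includes *Mbp* and *Pmp22*). All 7 genes of the neuron list were present in the table, and their summed level ran from 34.9 to 223 per 10000 over iCON cells and from 49.4 to 225 over iCKO cells. Joint clustering without the transporters and markers gave a cluster of 30 iCON and 7 iCKO cells named type II-like from *Prph*, *Gata3*, *Th*, *Plk5*, *Smad3* and *Etv4*, of which 4 were detected; all other cells are called type I. Clusters 4 (1 iCON and 102 iCKO cells) and 6 (0 and 48) came almost wholly from 1 library and stay unnamed, so values without them are given where they differ.

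*Slc17a6* (GRCm38 chromosome 7, 51622006 to 51671119, plus strand) and *Slc17a7* (chromosome 7, 45163949 to 45176142, plus strand) lie on the same chromosome, and *Slc17a8* lies on chromosome 10 (89574020 to 89621253, minus strand). These gene spans are from GENCODE M21. No run of 25 bases in the last 500 bases of any member's longest transcript occurred in the transcripts of the other members. Reads from these stretches can thus be told apart between the members, and matches to other genes were not tested. A short miRNA gene, *Mir7055*, lies within *Slc17a7*, and an unverified transcript, *Gm45072*, overlaps *Slc17a6*, both on the same strand. For *Slc17a6*, the sequence shown lies before the first of its RefSeq starts, and the other start is described below. The upstream sequences are shown because the study deletes a transcription factor and these members differed between classes in opposite directions. Each is the 250 bases before the RefSeq start (GRCm38.p6, plus strand, chr7:45163671-45163920 for *Slc17a7* and chr7:51621580-51621829 for *Slc17a6*), with every match to the GC box GGGCGG, on either strand, in capitals:
Slc17a7: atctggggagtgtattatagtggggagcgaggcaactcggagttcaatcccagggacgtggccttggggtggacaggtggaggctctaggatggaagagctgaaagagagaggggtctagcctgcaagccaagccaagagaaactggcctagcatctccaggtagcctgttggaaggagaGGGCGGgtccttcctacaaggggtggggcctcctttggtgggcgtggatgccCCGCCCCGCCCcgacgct
Slc17a6: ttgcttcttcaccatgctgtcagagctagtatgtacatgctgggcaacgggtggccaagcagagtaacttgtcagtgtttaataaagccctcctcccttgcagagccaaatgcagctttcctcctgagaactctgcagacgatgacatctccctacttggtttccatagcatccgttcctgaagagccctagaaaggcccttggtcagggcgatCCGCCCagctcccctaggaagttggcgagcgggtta
The *Slc17a7* sequence holds 3 matches to the GC box, of which the last and the one before it overlap by their end base, and the *Slc17a6* sequence holds 1. The other *Slc17a6* promoter (chr7:51624387-51624636), not shown, holds 0 matches and has a GC content of 41.2%. Both *Slc17a8* promoters hold 0, so 2 of the 5 promoters of the members hold a match. Of 32851 RefSeq promoters of this length, 32.7% hold at least one such match. The GC contents of the sequences shown were 61.2% (*Slc17a7*) and 53.2% (*Slc17a6*), against a median of 52.4% over all promoters. The RUNX core letters TGTGGT and TGCGGT were searched on both strands as well. All 3 members matched the promoter table, with 5 promoters among them, and 0 of the 5 hold either RUNX core, against 18.6% of all promoters. The absence says only that these letters are not in these windows.

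*Slc17a7* gave more UMIs than the other members in both libraries and was higher in the library labelled iCKO, whereas *Slc17a6* was lower there. Over all cells, *Slc17a7* ran from 0 to 12.3 UMIs per 10000 with a median of 4.78 in iCON, and from 0 to 13.2 with a median of 7.28 in iCKO. *Slc17a6* ran from 0 to 8.08 with a median of 2.47 in iCON, and from 0 to 8.53 with a median of 1.44 in iCKO. The cells of the libraries overlapped over most of these ranges for both genes. The mean of *Slc17a7* was 4.86 ± 2.03 (SD over 462 cells) in iCON, and 7.28 ± 2.34 (SD over 407 cells) in iCKO; the log2 ratio was 0.58 (counting interval of the summed UMIs 0.53 to 0.61). The mean of *Slc17a6* was 2.47 ± 1.57 in iCON against 1.74 ± 1.65 in iCKO, with a log2 ratio of -0.49 (-0.57 to -0.43). A filter on low values (mean of 0.5 per 10000 or more, UMI in 25% of cells or more) kept 3761 genes, of which 1.62% were higher in iCKO by a log2 ratio past 0.5 and 2.74% were lower. *Slc17a7* passed that fold and *Slc17a6* lay just inside it. Higher log2 ratios than that of *Slc17a7* were found for 34 genes, and lower ones than that of *Slc17a6* for 106. Without the clusters of 1 library, *Slc17a6* passed the fold, with a log2 ratio of -0.53.

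The balance of the pair moved further than either gene. The ratio of the *Slc17a6* mean to the *Slc17a7* mean was 0.51 in iCON and 0.24 in iCKO. UMI counts of a 3′ assay are not scaled to transcript length and the capture of each gene is unknown, so this ratio is compared between cells and libraries and is not read as a ratio of molecules. Of the UMIs of both genes, *Slc17a6* gave 33.2% in iCON (32.4 to 33.9) and 19.1% in iCKO (18.4 to 19.8). Cells with more *Slc17a6* than *Slc17a7* UMIs made up 19.5% (15.97 to 23.4) in iCON and 4.42% (2.64 to 6.90) in iCKO. Over type I cells alone these shares were 13.9% and 2.75%. Over all cells with Y-linked RNA the order was the opposite. The shares were 10.4% (6.55 to 15.5) of 202 cells in iCON and 13.4% (6.89 to 22.7) of 82 in iCKO, with intervals that overlap. All 7 type II-like cells of iCKO were among the 82, and no type II-like cell of iCON was among the 202. Each of the 7 had more *Slc17a6* than *Slc17a7* UMIs, out of 11 such cells in the 82. In type I cells with Y-linked RNA the share was thus lower in iCKO, on few cells. The summed level of both genes was 7.34 ± 2.08 per 10000 in iCON and 9.02 ± 2.42 in iCKO.

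The difference between the libraries in the mean of each gene kept its direction in cells divided by sex-linked RNA and by myelin-gene RNA, with different sizes. In *Xist* cells the log2 ratio was 0.72 for *Slc17a7* and -0.56 for *Slc17a6*. In cells with Y-linked RNA it was 0.28 and -0.31, so neither gene passed the fold there. In cells with little myelin-gene RNA the values were 0.54 and -0.35, and in the other cells 0.60 and -0.63. The *Xist* sets hold all 30 type II-like cells of iCON and none of iCKO. The Y-linked sets hold all 7 of iCKO and none of iCON. Type II-like cells had little *Slc17a7* (means 0.40 in iCON and 0.20 in iCKO), so the sets differ between the libraries in these cells too. Over type I cells of both sexes the log2 ratio was 0.51 for *Slc17a7* and -0.49 for *Slc17a6*. The part of sex, of type II-like cells and of myelin-gene RNA in the difference was not tested beyond these values.

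Every cell held RNA of at least one of the pair, and which cells held both depended on class. Shares of cells with a UMI are given after each cell was thinned to 20000 UMIs, since depth differed between the libraries. Both genes were found in 80.8% (76.9 to 84.4) of the 454 iCON cells deep enough and in 69.1% (64.4 to 73.6) of the 405 iCKO cells, a difference of -11.7 percentage points (-17.4 to -5.91). The difference was -4.64 points in *Xist* cells, -19.3 in cells with Y-linked RNA, and -1.80 in cells with little myelin-gene RNA. These sets include type II-like cells, in which both genes were found in 36.7% (iCON) and 28.6% (iCKO). By sex, those of iCON all lie in the *Xist* set and those of iCKO all in the Y-linked set. Their part in these sizes was not tested. Over type I cells alone the difference was -14.1 points. Before thinning the shares were 83.3% and 71.7%. No cell of either library lacked both genes, before or after thinning. Among type I cells before thinning, 0 of 832 lacked *Slc17a7*, which allows a share of up to 0.361%, and the lowest count was 2 UMIs in iCON and 5 in iCKO. *Slc17a6* was at 0 UMIs in 63 of 432 type I cells of iCON (14.6%) and 110 of 400 of iCKO (27.5%). Of those cells, 59 and 105 were in the class with high *Calb2* described next.

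Type I cells were divided by *Lypd1* at 10 and *Calb2* at 100 UMIs per 10000. These classes are ranges cut from 2 genes and not cell types. *Lypd1*-high cells (*Lypd1* at or above its limit, *Calb2* below) numbered 179 in iCON and 112 in iCKO, cells with neither high 167 and 61, *Calb2*-high cells 85 and 213, and cells with both high 1 and 14. *Calb2*-high cells were thus 19.7% of the iCON type I cells and 53.3% of the iCKO ones. Leaving out the few cells with both high, *Slc17a6* in both libraries was highest in *Lypd1*-high cells and lowest in *Calb2*-high cells, and *Slc17a7* was in the reverse order.

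*Slc17a6* in iCON ran from 0.93 to 6.27 per 10000 (median 3.22) in *Lypd1*-high cells, from 0 to 8.08 (median 2.29) in cells with neither, and from 0 to 3.60 (median 0) in *Calb2*-high cells. In iCKO it ran from 0.40 to 8.53 (median 2.61), from 0 to 5.91 (median 2.03) and from 0 to 5.62 (median 0.24). Every *Lypd1*-high cell of either library held *Slc17a6*, and most *Calb2*-high cells of iCON held none. The means in iCON were 3.32 ± 1.16, 2.46 ± 1.32 and 0.46 ± 0.91, and in iCKO 2.93 ± 1.53, 2.08 ± 1.39 and 0.87 ± 1.23. The log2 ratio of *Calb2*-high over *Lypd1*-high cells was -2.71 in iCON (summed UMIs -3.003 to -2.60) and -1.70 in iCKO (-1.93 to -1.64). In iCON 3.87% of 3776 genes were higher and 4.98% lower past the fold of 0.5 in this comparison, and in iCKO 2.14% of 3736 genes were higher and 3.45% lower.

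*Slc17a7* varied less between the classes than *Slc17a6*. In iCON it ran from 0.99 to 10.5 (median 4.11) in *Lypd1*-high cells, from 0.89 to 11.4 (median 5.37) in cells with neither and from 3.11 to 12.3 (median 6.73) in *Calb2*-high cells. In iCKO it ran from 1.70 to 11.9 (median 6.19), from 1.01 to 11.8 (median 6.46) and from 3.60 to 13.2 (median 8.21). These ranges overlap between classes and between libraries. The means were 4.32 ± 1.43, 5.32 ± 1.42 and 6.68 ± 1.66 in iCON, and 6.08 ± 1.89, 6.62 ± 2.001 and 8.24 ± 1.91 in iCKO. Its log2 ratio of *Calb2*-high over *Lypd1*-high cells was 0.62 in iCON (0.56 to 0.70), past the fold, and 0.44 in iCKO (0.36 to 0.50), which was not.

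**Figure D1:**
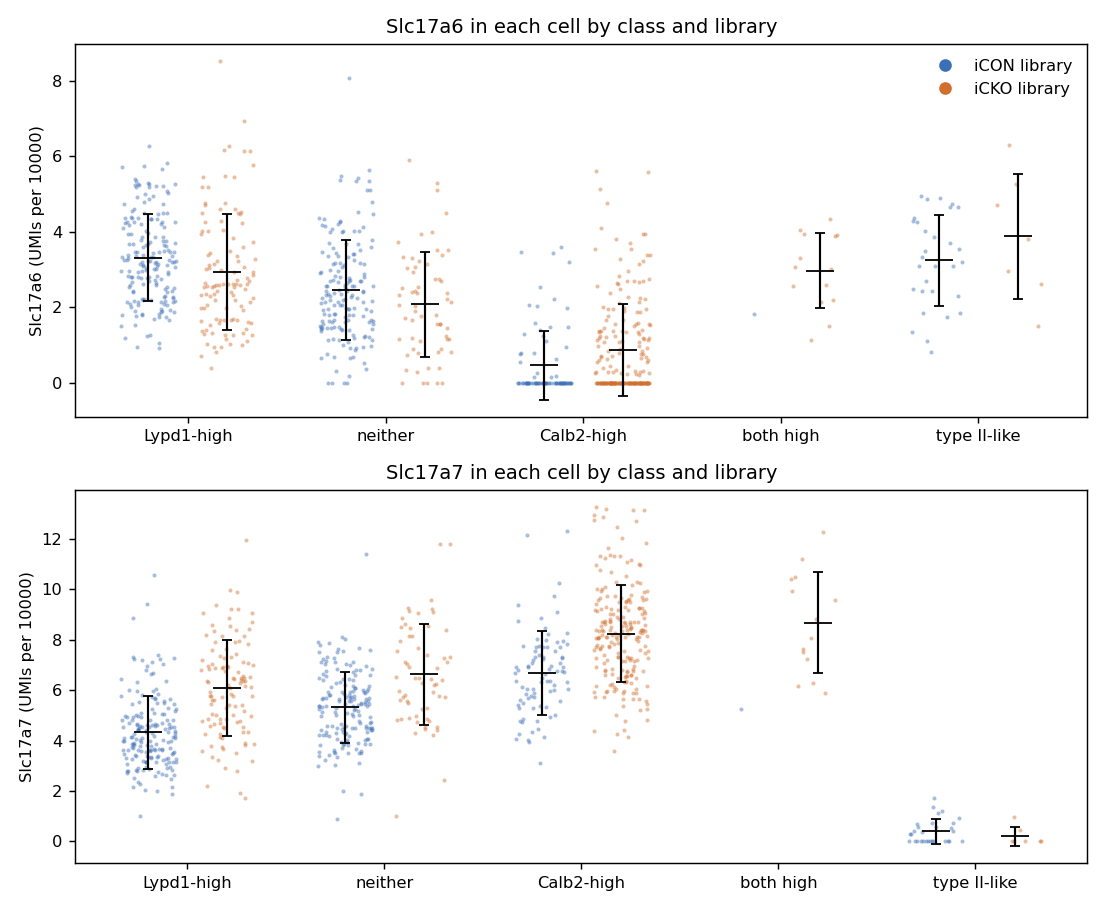
Level of *Slc17a6* (upper panel) and *Slc17a7* (lower panel) in UMIs per 10000 in each cell (points), by class and library, with the mean and SD over cells (bars). *Slc17a6* means drop from 3.32 in *Lypd1*-high to 0.46 in *Calb2*-high cells of iCON, and *Slc17a7* is near 0 in the type II-like cells alone.

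The ratio of *Slc17a6* to *Slc17a7* was 0.77 in *Lypd1*-high cells, 0.46 in cells with neither and 0.07 in *Calb2*-high cells of iCON. In iCKO it was 0.48, 0.31 and 0.11. The ratio was therefore lower in iCKO in the first and second class and higher in *Calb2*-high cells. The direction in *Calb2*-high cells depended on which of them were taken. The ratio was 0.035 in iCON and 0.099 in iCKO among *Xist* cells, but 0.141 and 0.140 among cells with Y-linked RNA, and 0.047 and 0.039 among cells without a *Runx1* UMI. With both limits at 0.5 times their values, *Slc17a6* was lower in iCKO (log2 ratio -0.46) and *Slc17a7* higher (0.38). *Slc17a6* gave more UMIs than *Slc17a7* in 49 of the 179 *Lypd1*-high cells of iCON (27.4%, 21.0 to 34.5) and in 9 of 112 of iCKO (8.04%, 3.74 to 14.7). It did so in no *Calb2*-high cell of either library. In the 14 iCKO cells with both markers high the ratio was 0.34, with *Slc17a6* at 2.98 ± 0.9998 and *Slc17a7* at 8.67 ± 2.01, so these cells held *Slc17a6* at the level of *Lypd1*-high cells and *Slc17a7* at that of *Calb2*-high cells. No doublet caller was run, and the part of doublets in these cells was not tested; their median depth was 35638 UMIs, against 33341.5 in *Lypd1*-high and 34525 in *Calb2*-high cells of iCKO.

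Within each class *Slc17a7* was higher in the library labelled iCKO. Its log2 ratio was 0.49 in *Lypd1*-high cells, 0.31 in cells with neither and 0.30 in *Calb2*-high cells, none past the fold of 0.5. The classes drew on different clusters in each library: cluster 0 held 135 of the 179 *Lypd1*-high cells of iCON and 18 of the 112 of iCKO, and cluster 2 held 122 of the 167 cells with neither in iCON and 11 of the 61 in iCKO. Within cluster 0 the log2 ratio of *Slc17a7* was 0.10 (summed UMIs -0.08 to 0.30), and within cluster 2 it was 0.20 (-0.0024 to 0.41). In *Lypd1*-high cells the value lay near the fold and passed it on summed UMIs (0.53), after thinning (0.54), with doubled limits (0.55), in *Xist* cells (0.59) and in cells with more myelin-gene RNA (0.54), but not with limits at 0.5 times their values (0.41), in cells with Y-linked RNA (0.26), in cells with little myelin-gene RNA (0.29) or without the clusters of 1 library (0.30). The genes past the fold in these classes were 1.66% higher and 2.21% lower in *Lypd1*-high cells, 1.71% and 2.32% in cells with neither, and 1.42% and 1.47% in *Calb2*-high cells. In *Lypd1*-high cells 68 of 3793 genes had a higher log2 ratio than *Slc17a7*, and in *Calb2*-high cells 251 of 3670. When the 3 classes were given equal weight in each library, the log2 ratio over cells was 0.36 for *Slc17a7* and -0.08 for *Slc17a6*, against 0.58 and -0.49 over all cells. The log2 ratio of the ratio went from -1.07 to -0.44.

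*Slc17a6* differed between the libraries in opposite directions by class. In *Calb2*-high cells it was higher in iCKO, with a log2 ratio of 0.84 (summed UMIs 0.64 to 1.09). In *Lypd1*-high cells it was lower by a log2 ratio of -0.18 (-0.25 to -0.05), and in cells with neither by -0.23 (-0.37 to -0.06), both inside the fold. These directions depended on how cells were chosen. In *Lypd1*-high cells with *Calb2* below 10 *Slc17a6* was higher in iCKO (means 3.31 over 140 and 3.74 over 30 cells, log2 ratio 0.17, summed UMIs 0.06 to 0.38), and with *Calb2* from 10 to 100 it was lower (3.34 over 39 and 2.64 over 82 cells, -0.34, -0.47 to -0.16). In type I cells with *Lypd1* at 40 and above it was 0.14 (-0.0031 to 0.31). With the limits on *Lypd1* and *Calb2* set to 0.5 times their values, the log2 ratio was -0.46 in *Calb2*-high cells and 0.33 in cells with neither. In *Calb2*-high cells it was 1.69 among *Xist* cells (means 0.22 in 55 iCON and 0.83 in 173 iCKO cells) and 0.12 among cells with Y-linked RNA (0.97 in 28 and 1.06 in 38 cells). The *Calb2*-high cells of iCON came mostly from clusters 3 and 5 (52 and 29 cells), and those of iCKO from clusters 3, 5 and 4 (69, 69 and 52 cells). Over all cells of cluster 3 the log2 ratio of *Slc17a6* was -0.68 (summed UMIs -0.72 to -0.05). In cluster 5 it was 0.10 (-0.13 to 0.71). Without the clusters of 1 library the log2 ratio was 0.68 in *Calb2*-high cells, -0.03 in cells with neither and 0.06 in *Lypd1*-high cells, where clusters 4 and 6 had given 31 cells each of the 112 in iCKO.

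*Runx1* RNA also separated the *Calb2*-high cells. A *Runx1* UMI was found before thinning in 43.5% of them in iCON and 75.6% in iCKO, with means of 0.159 and 0.958 per 10000. In cells with a *Runx1* UMI the mean of *Slc17a6* was 0.65 over 37 cells of iCON and 1.04 over 161 of iCKO, a log2 ratio of 0.63. In cells without one it was 0.32 (48 cells) and 0.33 (52 cells), a log2 ratio of 0.03. Median depth in the class was 55533 UMIs in iCON and 34525 in iCKO, so a cell without a *Runx1* UMI is a deeper observation in iCON. *Slc17a7* was higher in iCKO in both sets, with log2 ratios of 0.34 and 0.28.

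Co-detection by class followed the levels of *Slc17a6*. After thinning, both genes were found in all 177 *Lypd1*-high cells of iCON and all 111 of iCKO. They were found in 96.3% and 93.3% of cells with neither marker high. In *Calb2*-high cells the shares were 25.3% (16.4 to 36.04) of 83 cells in iCON and 45.5% (38.7 to 52.5) of 213 in iCKO. With at least 2 UMIs of each gene required, they were 19.3% and 35.7%. Among *Xist* cells of this class the shares with at least 1 UMI of each were 13.2% (5.48 to 25.3) and 43.9% (36.4 to 51.7), and among cells with Y-linked RNA both genes were found in 14 of 28 cells (30.6% to 69.4%) and 20 of 38 (52.6%, 35.8 to 69.02). Before thinning, 44 of the 55 *Calb2*-high *Xist* cells of iCON held no *Slc17a6* UMI, and the summed level over the 55 was 0.19 per 10000 (0.14 to 0.24), at a median depth of 55607 UMIs. Free RNA could give these cells no more than that level, and its part in the other low shares was not tested.

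**Figure D2:**
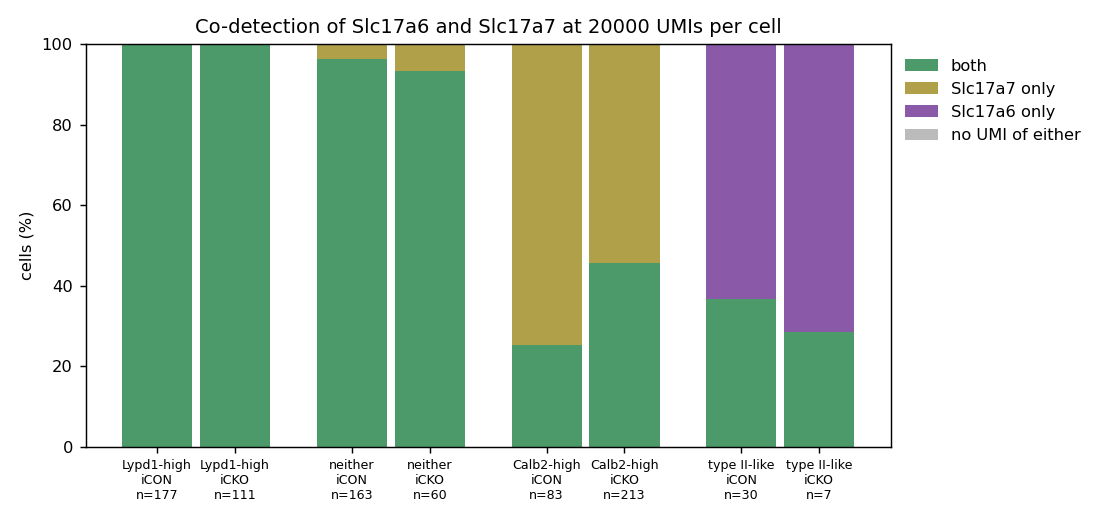
Share of cells (%) of each class and library with UMIs of both genes, of *Slc17a7* only or of *Slc17a6* only, each cell thinned to 20000 UMIs. Cells with *Slc17a7* only are the larger part of *Calb2*-high cells, cells with *Slc17a6* only appear in the type II-like cells alone, and no cell falls outside the 3 colours shown.

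Finer ranges of *Calb2* gave a graded picture in type I cells. In iCON the mean of *Slc17a6* over the 6 ranges from below 1 to 200 and above was 3.32, 3.27, 3.07, 2.43, 0.75 and 0.25 per 10000. In iCKO it was 3.61, 3.84, 3.24, 2.16, 1.41 and 0.61, of which the first and second value rest on 15 and 16 cells. The steepest drop in iCON thus lay between cells with *Calb2* at 30 to 100 and those at 100 to 200, and the drop in iCKO was spread over more ranges. *Slc17a7* went the other way, from 3.99 to 6.52 in iCON and from 4.70 to 8.49 in iCKO. Its iCKO over iCON log2 ratios ran from 0.08 to 0.38 over the 6 ranges, and the counting intervals of the 2 lowest ranges include 0 (-0.03 to 0.37 and -0.09 to 0.31). The *Slc17a6* share of the pair's UMIs went from 45.7% to 4.07% in iCON and from 46.2% to 7.17% in iCKO. At *Calb2* below 10 the shares of the libraries lay within their counting intervals, and at 30 to 100 they were 32.0% in iCON and 24.7% in iCKO. Both genes were found after thinning in 34.2% of iCON cells and 59.1% of iCKO cells with *Calb2* at 100 to 200, and in 19.6% and 39.3% of those at 200 and above.

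**Figure D3:**
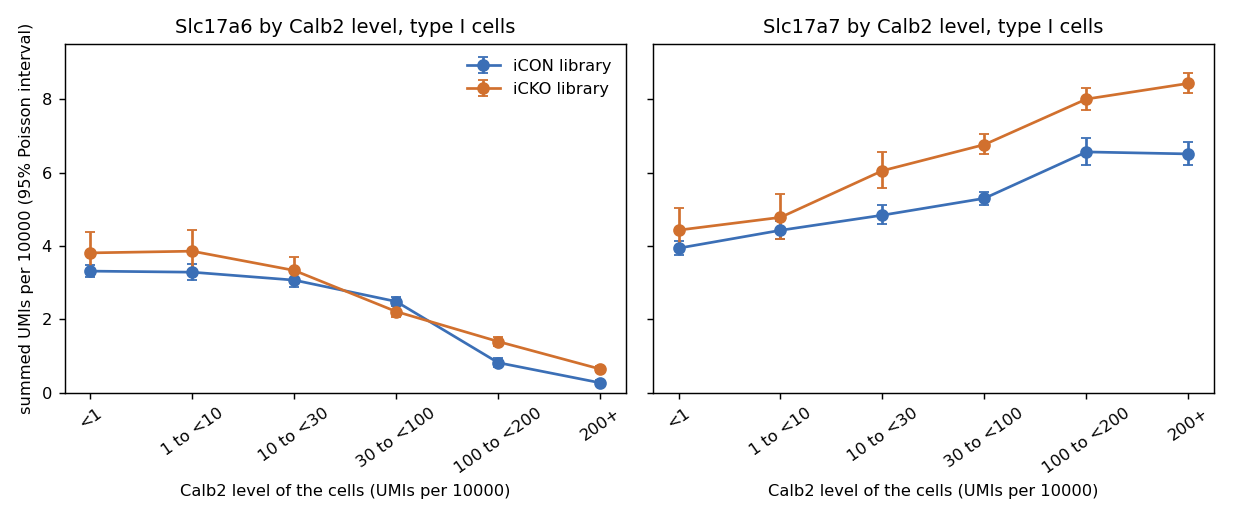
Summed UMIs per 10000 of *Slc17a6* (left) and *Slc17a7* (right) in type I cells by range of *Calb2* level, with 95% Poisson intervals, for each library. *Slc17a6* drops with *Calb2* in both libraries, and *Slc17a7* lies higher in iCKO in the ranges from 10 upwards, while in the 2 lowest the intervals of the log2 ratio include 0.

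*Lypd1* level ordered the pair less sharply. In type I cells with *Lypd1* below 1, *Slc17a6* gave 21.7% of the pair's UMIs in iCON and 11.3% in iCKO. At 40 and above it gave 44.8% and 42.3%. Between these ends the shares were 35.6% to 43.2% in iCON and 26.0% to 28.7% in iCKO. In percentage points the libraries lay furthest apart at *Lypd1* levels from 20 to 40 (43.2% and 28.4%) and closest in the highest range. On the log2 ratio of *Slc17a6* to *Slc17a7* they lay furthest apart below 1 (-1.80 in iCON and -2.89 in iCKO). At 20 to 40 that log2 ratio was -0.40 in iCON and -1.35 in iCKO. *Lypd1*-high cells were also divided by *Calb2*. With *Calb2* below 10 the ratio of *Slc17a6* to *Slc17a7* was 0.79 over 140 cells of iCON and 0.77 over 30 of iCKO. With *Calb2* from 10 to 100 it was 0.70 (39 cells) and 0.40 (82 cells). The mean *Calb2* level of *Lypd1*-high cells was 6.49 per 10000 in iCON and 36.9 in iCKO.

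**Figure D4:**
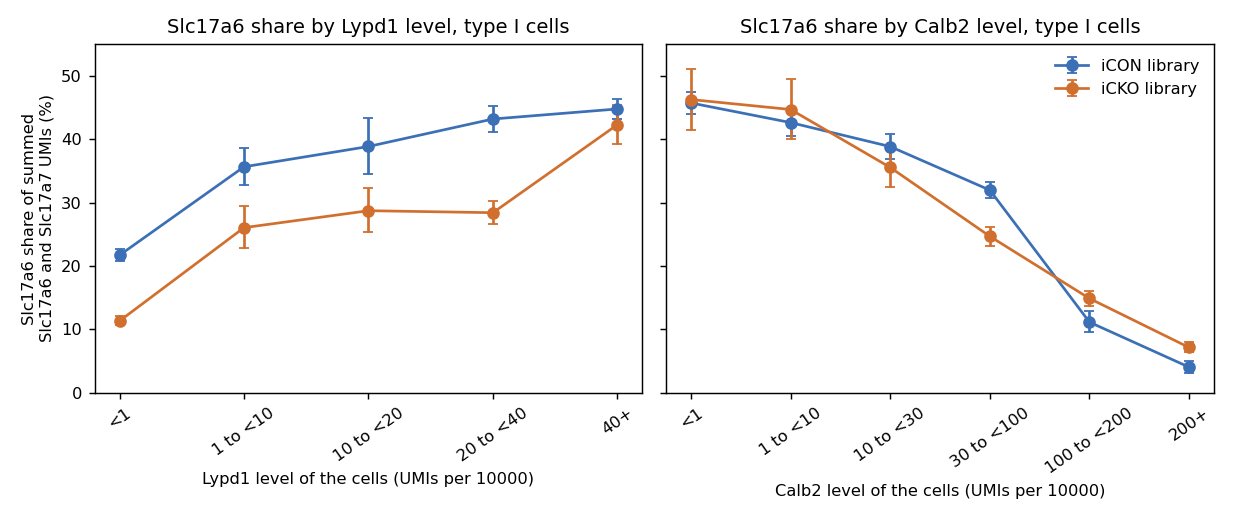
*Slc17a6* share of the UMIs of *Slc17a6* and *Slc17a7* (%) in type I cells by range of *Lypd1* level (left) and of *Calb2* level (right), with 95% binomial intervals. The share climbs with *Lypd1* to 44.8% in iCON and 42.3% in iCKO and drops with *Calb2* to 4.07% and 7.17%.

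The type II-like cells stood apart from the type I cells in *Slc17a7*. Its mean was 0.40 ± 0.48 in the 30 iCON cells (40 UMIs in all) and 0.20 ± 0.38 in the 7 iCKO cells (3 UMIs), against 5.17 ± 1.71 and 7.40 ± 2.16 in type I cells. *Slc17a6* was found in all 37 type II-like cells, with means of 3.24 ± 1.21 and 3.88 ± 1.66, near the level of *Lypd1*-high type I cells. Its share of the pair's UMIs was 88.3% in iCON (84.4 to 91.5) and 95.1% in iCKO (86.3 to 98.97). *Slc17a6* was above *Slc17a7* in every one of these cells. After thinning, *Slc17a7* was found in 36.7% and 28.6% of them, at median depths of 31229 and 20915 UMIs, whereas it was found in all type I cells. In iCON the log2 ratio of type II-like over type I cells was -3.53 for *Slc17a7* and 0.41 for *Slc17a6*. In that comparison 25.3% of 4251 genes were higher and 27.6% lower past the fold. No type II-like cell held a *Runx1* UMI. All 30 iCON cells were in the *Xist* set and all 7 iCKO cells in the Y-linked set. Library and sex therefore cannot be told apart among type II-like cells. Clustering used other genes of the same cells, and so these values are a description.

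*Slc17a8*, the hair cell transporter, was close to the detection limit. It had 10 UMIs in 9 iCON cells and 5 UMIs in 5 iCKO cells, with at most 2 UMIs in a cell, and it did not pass the filter on low values. Its means were 0.0039 and 0.0034 per 10000, and the interval of the log2 ratio of summed UMIs was -2.22 to 1.36, so no difference was detectable at this depth. All 14 cells were type I cells with *Slc17a7* UMIs, 11 of them with *Slc17a6*. None held a UMI of *Otof*, a hair cell gene whose total was 2 UMIs in iCON and 5 in iCKO. Of the 11 genes of the hair cell list 6 are listed in the table. Their summed level ran from 6.97 to 72.7 per 10000 over iCON cells and from 12.7 to 190 over iCKO cells, and most of it was *Pvalb*, which spiral ganglion neurons also express (means 38.1 and 42.2).

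Over type I cells *Slc17a6* and *Slc17a7* varied inversely. Spearman's correlation of their levels was -0.36 over 432 iCON cells and -0.26 over 400 iCKO cells. *Slc17a6* followed *Calb2* at -0.59 and -0.62, *Lypd1* at 0.52 and 0.60 and *Runx1* at 0.44 and 0.33. *Slc17a7* followed *Calb2* at 0.54 and 0.49. Correlations of either gene with depth and with myelin-gene RNA lay between -0.10 and 0.10. These are descriptions over cells that share a library and a scaling to the cell's total. Among 3552 candidate genes, those most like *Slc17a6* in iCON were *Ostf1* (0.57), *Ntng1* (0.56), *Pcsk2* (0.52), *Lypd1* and *Serpini1* (0.51), and those least like it were *Calb2*, *Zfp804a* (-0.54) and *B3gat1* (-0.48). Of the 5 most like it, 4 were also among the top 5 in iCKO. Those most like *Slc17a7* were *Calb2*, *Syt7* (0.47), *Adarb1* (0.45), *Cd24a* (0.44) and *Zfp804a* (0.43), of which 2 were among the top 5 in iCKO. The least like it were *Calm2* (-0.47), *Lypd1* (-0.44) and *Pcsk2* (-0.41).

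Of 49 genes on a list of vesicular glutamate handling, 38 are listed in the table and 24 passed the filter on low values. Of the 24, 1 was higher and 1 lower past the fold in iCKO, against 1.62% and 2.74% of all genes, and their median log2 ratio was 0.04, against 0.01 over all 3761 genes. The gene that was lower was *Glul*, glutamine synthetase, known from glia, with means of 1.49 and 0.97 and a log2 ratio of -0.60. Genes of glia and myelin were lower in the same comparison: of 9 on that list, 6 passed the filter and 5 of them were lower past the fold (2.74% over all genes), *Mbp*, *Pmp22* and *Apoe* among them, and the summed level over all 9 had a median of 51.0 per 10000 (0 to 159) in iCON and 35.2 (0.438 to 73.5) in iCKO. *Glul* had a log2 ratio of -0.25 in cells with little myelin-gene RNA and -0.36 in the others, neither past the fold, but -0.95 in cells with Y-linked RNA and -1.02 without the clusters of 1 library.

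Of the 15 subunits of the vesicular proton pump that passed the filter, 0 crossed the fold between the libraries, a count near the background of 1.62% higher and 2.74% lower and so no result about the pump. *Atp6v1a*, a catalytic subunit, had means of 2.90 in iCON and 3.29 in iCKO. The chloride carrier of vesicles *Clcn3* was at 1.89 and 1.84, and the endophilin *Sh3gl2*, whose protein binds VGLUT1 and takes part in vesicle recycling, was at 4.42 and 5.57. None of the 6 listed genes for plasma membrane glutamate transporters passed the filter, and neither did the 3 listed vesicular transporters for other transmitters. Between *Calb2*-high and *Lypd1*-high cells of iCON, 1 of the 24 genes was past the fold, the pump subunit *Atp6v1g1* (2.94 and 1.99, log2 ratio 0.55), and in iCKO 0 were; over all genes 3.87% were higher and 4.98% lower in *Calb2*-high cells of iCON, and 2.14% and 3.45% in those of iCKO. The median of the 24 was 0.05 in iCON and 0.10 in iCKO, against -0.03 over all genes in both.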

How the data were processed

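RNA was counted in sorted single cells of 2 libraries. Cell Ranger, Seurat and mm10 are named in the submitters' processing notes; their versions and settings are not given in the sources used here. Values of the deposited table are natural log CPM, with 1 added before the log, a unit settled from the values themselves, and the deposited annotation gives a text label, the library, for each cell barcode. Divided by the smallest value of its cell, 100% of nonzero entries came out whole (tolerance 1e-06), so whole UMIs were recovered. A level is the mean over cells of UMIs per 10000. Log2 ratios add a pseudocount of 0.05 to each mean; intervals are exact Poisson, conditional or Clopper-Pearson intervals, and Newcombe's for the difference of shares.

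Cells were thinned at random to 20000 UMIs (8 iCON and 2 iCKO cells were too shallow). Clustering used scanpy 1.11.5 and leidenalg 0.10.2 (resolution 0.5, 15 neighbours, 20 components, 2000 variable genes), without *Runx1*, the members and the marker lists. All cells were kept and no doublet caller was run. The fold computation, tested on simulated data for iCKO over iCON with 200 of 14425 genes changed by a log2 ratio of 1, recovered 100% of them. Named genes are the members, *Runx1*, *Lypd1*, *Calb2*, pathway genes past the fold of 0.5, and for each member found in at least 25% of iCON cells the 5 genes with the highest and 3 with the lowest Spearman correlation; *Atp6v1a*, *Clcn3*, *Sh3gl2*, *Otof*, *Pvalb*, *Mbp*, *Pmp22*, *Apoe* and the genes that lead clusters were named after their values were seen. Some genes that the rule selects are not reported here. The members and lists were chosen with earlier results of these data known. Alternatives were other cuts, depths, pseudocounts, filters, sexes, myelin-gene levels and class weights; division by *Runx1*, finer ranges, thinned class levels and the set without clusters of 1 library were chosen after seeing the data.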

Additional observations from a re-analysis of the deposited data

Results flagged for a closer look

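*Slc17a6* was set apart because its difference between the libraries had opposite signs in classes of cells, with counting intervals that did not include 0. The iCKO over iCON log2 ratio was 0.84 in *Calb2*-high cells, -0.18 in *Lypd1*-high cells and -0.23 in cells with neither marker high. With 1 library per group the difference between classes was not tested, and the signs changed under other choices of cells, as given with the processing.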

How the results depend on the processing

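With 1 library per group, no library could be left out. No paired analysis was possible because each group has 1 library. Differences between the libraries are iCKO over iCON log2 ratios unless said otherwise, and the causes of the changes were not tested. Of 173 values recomputed under another setting, 99 stayed within the counting interval or within 1.5 times the count, 70 moved, and 4 changed sign where the reported interval did not include 0. *Slc17a6*, *Slc17a7* and their ratio over all cells kept their direction under all 10 settings each. With 10 UMIs in iCON and 5 in iCKO, *Slc17a8* had an interval that includes 0; its log2 ratio kept its sign in 6 of 10 settings (-0.32 to 0.04).

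Besides *Slc17a8*, the signs that changed were those of *Slc17a6* in *Lypd1*-high cells (0.013 with little myelin-gene RNA and 0.056 without clusters of 1 library), in cells with neither (0.33 with cuts at 0.5 times their values) and in *Calb2*-high cells (-0.46 with the same cuts).

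Over all cells, *Slc17a6* was -0.31 in cells with Y-linked RNA, -0.35 and -0.63 in cells with low and high myelin-gene RNA and -0.083 with equal class weights. *Slc17a7* was 0.51 in type I cells, 0.72 in *Xist* cells, 0.28 in Y-linked cells and 0.36 with equal weights. The ratio was -1.29 in *Xist* cells, -0.59 in Y-linked cells, -0.89 and -1.23 in low and high myelin cells and -0.44 with equal weights. The co-detection difference was -4.64 percentage points in *Xist* cells, -19.3 in Y-linked cells and -1.80 in low myelin cells. The values by sex in this paragraph include type II-like cells. Those of iCON all lie in the *Xist* set and those of iCKO all in the Y-linked set.

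The log2 ratio of *Slc17a6* to *Slc17a7* was also compared between a high and a low range of each marker. All cells were taken, unlike in the finer ranges above. Type II-like cells were thus included, and by sex they fall in the *Xist* set of iCON and the Y-linked set of iCKO. For *Lypd1*, at 10 and above over below 1, the difference was 1.09 in iCON and 1.65 in iCKO. In iCON it was 1.06 in *Xist*, 1.08 in Y-linked and 0.81 in low myelin cells. In iCKO it was 1.05 in Y-linked and 1.54 in low myelin cells. For *Calb2*, at 100 and above over below 10, the difference over all cells was -3.55 in iCON and -2.93 in iCKO. In iCON it was -2.07 and -4.27 with cuts at 0.5 and 2 times their values, -4.53 in *Xist* and -2.35 in Y-linked cells. In iCKO these were -2.56, -3.49, -2.61 and -3.71. For *Calb2*-high over *Lypd1*-high cells in iCON it was -1.79 and -4.12 with these cuts, -4.29 in *Xist*, -2.29 in Y-linked, -3.67 in high myelin and -2.87 in low myelin cells, and -2.85 in cells with a *Runx1* UMI. In iCKO it was -2.63 with cuts at 2 times their values, -1.90 in Y-linked cells, -1.90 in cells with a *Runx1* UMI and -2.72 without clusters of 1 library.

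By class, *Slc17a6* was -0.31 in high myelin *Lypd1*-high cells, and in cells with neither -0.39 with doubled cuts, -0.42 in *Xist* cells and -0.034 without clusters of 1 library. In *Calb2*-high cells it was 1.16 with doubled cuts, 1.69 in *Xist*, 0.12 in Y-linked and 0.56 in low myelin cells, and 0.63 and 0.030 with and without a *Runx1* UMI. *Slc17a7* in *Lypd1*-high cells was 0.41 with halved cuts, 0.26 in Y-linked cells, 0.29 in low myelin cells and 0.30 without clusters of 1 library, and past 0.5 with doubled cuts (0.55), in *Xist* (0.59) and high myelin cells (0.54) and after thinning (0.54). It was 0.40 with doubled cuts in cells with neither, and 0.14 in Y-linked *Calb2*-high cells.

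Genes past the fold numbered 61 higher and 103 lower, 141 and 347 with no filter on low values, and 6 and 5 at a log2 ratio of 1. Of the 5 genes most like *Slc17a6*, 3 stayed among the top 5 after thinning, and of those most like *Slc17a7*, 3 after thinning and 2 over iCKO cells. *Glul* kept its direction in 10 of 10 settings (-1.02 to -0.25).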

Other observations

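Values by cluster show the pair outside the classes cut from *Lypd1* and *Calb2*. Among clusters with at least 11 cells of each library, *Slc17a7* was higher in iCKO in cluster 1 (5.13 and 6.59 per 10000), cluster 3 (6.34 and 8.53) and cluster 5 (6.72 and 8.30). In cluster 0 it was at 4.16 and 4.46 and in cluster 2 at 5.33 and 6.11, where the iCKO values rest on 18 and 11 cells and the counting intervals of the log2 ratio include 0 (-0.08 to 0.30 and -0.0024 to 0.41). *Slc17a6* was at 3.15 and 3.12 in cluster 0, 3.38 and 3.07 in cluster 1, 2.36 and 2.40 in cluster 2, 0.88 and 0.53 in cluster 3, and 0.56 and 0.61 in cluster 5. Cluster 3, led by *Bpifa1*, *Ptgds* and *Calb2*, had a log2 ratio of -0.68 for *Slc17a6* and of -0.38 on summed UMIs (-0.72 to -0.05). In iCON 5 of its 66 cells were *Lypd1*-high and 9 had neither marker high, and in iCKO 0 and 1 of 70. The part of this difference in class in the log2 ratio was not tested.

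The cells of clusters 4 and 6, which iCON all but lacks, had *Slc17a6* at 1.64 ± 1.499 (102 cells) and 2.20 ± 0.97 (48 cells) and *Slc17a7* at 7.37 ± 1.91 and 7.24 ± 2.03 in iCKO, ratios of 0.22 and 0.30. Cluster 4 was led by *Pcp4*, *Nrip3* and *Sh3bgr*, and cluster 6 by *Espn*, *Mgp* and *Hopx*. *Pcp4* had 30 UMIs in iCON and 1558 in iCKO.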
